A study of Mus musculus with 4 samples.

Results

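Cycling myeloid cells were examined in the brains of mice with CT2a glioma, a mouse glioma line, from sorts of live CD45+ cells (leukocytes) out of the hemisphere with the tumor. The cells were selected on their UMIs (unique molecular identifiers, 1 for each captured transcript) of marker genes. A barcode was counted as a cycling myeloid cell when it held at least 500 genes, less than 10% mitochondrial UMIs, at least 4 UMIs of Top2a and Mki67 together, at least 30 UMIs of Lyz2, C1qa, C1qb and C1qc together, and no UMI of Cd3d, Cd3e, Ncr1, Klrb1c or Cd79a. Of 13960 barcodes, 377 met these conditions, 255 from WT and 122 from CaMKK2 KO mice. The same gate with no Top2a or Mki67 UMI held 4696 non-cycling myeloid cells, and 1156 gated cells had 1 to 3 of these UMIs and belonged to neither group.

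The hosts were C57Bl/6 mice, either CaMKK2 WT or CaMKK2 KO, with 4 mice per genotype, and all carried CT2a cells implanted in the brain and were harvested on day 14. CaMKK2, a calcium- and calmodulin-dependent kinase, was missing in the germline of the KO hosts and thus in every host cell, while the implanted glioma cells came from the same line in both groups. Cells of each mouse were stained with 1 of 4 oligo-tagged antibodies (hashtags), and each genotype took up 1 channel of the 10X platform. The mice were therefore the replicates, and genotype and channel cannot be told apart.

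Cells that divide copy their DNA in S phase and separate the copies in mitosis. Transcripts of the replication enzymes peak in S phase, under the control of E2F factors, and those of the spindle and of chromosome condensation peak later, under MuvB complexes with B-MYB and FOXM1. In the brain, microglia renew themselves locally by division, and macrophages that descend from blood monocytes can also divide once they have settled in tissue, whereas circulating Ly6C-high monocytes are largely non-dividing. In gliomas these lineages make up the tumor-associated macrophages (TAMs).

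The 5 genes that mark cycling cells here serve both phases. Top2a encodes the topoisomerase that untangles replicated DNA, Mki67 the surfactant-like coat of mitotic chromosomes, Nusap1 and Prc1 proteins that bundle spindle microtubules, and Rrm2 the ribonucleotide reductase subunit that supplies DNA precursors. Their promoters are shown because these genes define or mark the cells, followed by those of Pcna and Hmgb2, the S phase and mitosis list genes with the highest UMI counts in cycling cells. Each line gives the 250 bases before the transcription start, 5′ to 3′ on the gene's strand, from RefSeq on GRCm38.p6. Capitals mark matches, on either strand, to the CHR motif (TTTGAA or TTCGAA), to CCAAT, or to the E2F motif (TTTCCCGC, TTTGGCGC, TTTCGCGC or TTTGGCGG), none of which contains another.
Top2a, chr11:99024190-99024439, minus strand: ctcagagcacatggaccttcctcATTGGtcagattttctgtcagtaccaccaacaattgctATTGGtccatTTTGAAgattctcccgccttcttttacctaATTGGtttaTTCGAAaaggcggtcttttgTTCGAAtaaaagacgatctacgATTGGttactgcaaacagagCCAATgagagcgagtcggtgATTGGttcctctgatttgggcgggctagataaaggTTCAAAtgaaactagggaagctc
Mki67, chr7:135716380-135716629, minus strand: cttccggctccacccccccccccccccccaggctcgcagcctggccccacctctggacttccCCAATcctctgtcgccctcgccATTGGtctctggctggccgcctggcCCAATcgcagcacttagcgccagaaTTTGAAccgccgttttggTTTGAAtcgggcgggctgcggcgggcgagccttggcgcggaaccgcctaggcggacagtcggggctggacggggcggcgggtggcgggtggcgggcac
Nusap1, chr2:119618048-119618297, plus strand: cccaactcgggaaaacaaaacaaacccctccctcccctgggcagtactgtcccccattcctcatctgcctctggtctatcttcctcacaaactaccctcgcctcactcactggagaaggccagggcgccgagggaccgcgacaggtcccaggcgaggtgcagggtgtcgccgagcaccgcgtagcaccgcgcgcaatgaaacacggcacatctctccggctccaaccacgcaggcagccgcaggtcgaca
Rrm2, chr12:24708004-24708253, plus strand: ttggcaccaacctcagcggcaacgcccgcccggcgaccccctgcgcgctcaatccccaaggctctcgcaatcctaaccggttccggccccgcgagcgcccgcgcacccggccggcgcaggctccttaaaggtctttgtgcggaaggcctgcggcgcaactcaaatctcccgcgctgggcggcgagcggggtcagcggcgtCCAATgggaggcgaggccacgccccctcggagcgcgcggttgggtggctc
Prc1, chr7:80294201-80294450, plus strand: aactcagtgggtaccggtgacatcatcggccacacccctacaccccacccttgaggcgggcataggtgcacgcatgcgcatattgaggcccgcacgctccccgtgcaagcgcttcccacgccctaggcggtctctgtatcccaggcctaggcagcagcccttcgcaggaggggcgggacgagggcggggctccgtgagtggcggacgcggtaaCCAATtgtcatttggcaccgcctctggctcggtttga
Pcna, chr2:132253181-132253430, minus strand: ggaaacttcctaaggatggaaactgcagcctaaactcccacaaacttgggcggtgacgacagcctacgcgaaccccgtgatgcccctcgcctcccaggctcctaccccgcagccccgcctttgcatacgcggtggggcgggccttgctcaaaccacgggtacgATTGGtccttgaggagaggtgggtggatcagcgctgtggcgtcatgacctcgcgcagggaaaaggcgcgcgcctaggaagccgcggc
Hmgb2, chr8:57511593-57511842, plus strand: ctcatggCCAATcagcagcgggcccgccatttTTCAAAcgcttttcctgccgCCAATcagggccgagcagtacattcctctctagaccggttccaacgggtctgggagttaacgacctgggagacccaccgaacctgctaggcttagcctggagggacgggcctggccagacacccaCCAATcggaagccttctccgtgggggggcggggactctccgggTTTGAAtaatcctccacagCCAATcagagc

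The Top2a promoter held 4 CHR and 6 CCAAT matches, the Mki67 promoter 2 CHR and 3 CCAAT matches, and the Hmgb2 promoter 2 CHR and 4 CCAAT matches. The windows of Rrm2, Prc1 and Pcna held 1 CCAAT match each, and that of Nusap1 held none of these letters. CHR was present in 38.9% of the 36 mitosis list promoters that were matched by symbol, 18.5% of the 27 S phase list promoters and 17.4% of all 27025 promoters of the same length. E2F matches were found in 29.6% of S phase, 5.56% of mitosis and 2.0% of all promoters, and CCAAT in 63.0%, 77.8% and 34.5%. These matches describe letters in a window and are not evidence of binding.

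Top2a and Mki67 levels, as well as Lyz2, the C1q genes and the lymphoid genes, chose the cells and are given as a description. The median cycling cell held 12 Top2a and Mki67 UMIs and the highest held 136. Just inside the threshold, 53 cells had exactly 4 and 37 had exactly 5 UMIs, and just outside it 129 gated cells had exactly 3. The Lyz2 and C1q threshold lay far below most members, whose median was 594 UMIs. None had 30 to 39 UMIs, and only 2 further cells with 4 or more Top2a and Mki67 UMIs and no lymphoid UMI had 20 to 29.

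Libraries held 13960 barcodes, of which 12866 passed the limits on genes and mitochondrial UMIs and 6229 of those, or 48.4%, fell in the myeloid gate. Total UMIs per mouse averaged 20619400 in WT and 20518700 in CaMKK2 KO mice. Hashtags assigned 327 of the 377 cycling cells to 1 mouse, and the remaining 50 carried 2 or more hashtags and were left out of every comparison between mice. Such hashtag doublets were 13.3% of cycling and 6.90% of non-cycling cells. WT mice 1 to 4 contributed 64, 49, 51 and 57 cycling cells, and CaMKK2 KO mice 1 to 4 contributed 24, 19, 53 and 10. CaMKK2 KO mouse 3 thus stood apart from its group, and the shares that cycle are given below with and without it. The libraries shared 42 cell barcodes, 1 of them in the myeloid gate and 0 among cycling cells.

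Cycling cells were large in RNA. Their median was 28886 UMIs and 5257 genes, against 13033 UMIs and 3231.5 genes in non-cycling cells and 16735 UMIs in those with 1 to 3 Top2a and Mki67 UMIs. The median share of mitochondrial UMIs was 3.44% in cycling and 2.39% in non-cycling cells. Since 4 UMIs are reached more easily in a cell with more UMIs, shares were also computed after each cell had been thinned to 5000 UMIs. As a measure of free RNA, 4 or more Top2a and Mki67 UMIs were found in 1.11% of 180 WT (95% exact binomial interval, 0.135 to 3.96%) and 1.87% of 214 CaMKK2 KO B cells (0.512 to 4.72%), gated on 5 or more UMIs of Cd79a and Ms4a1 and under 30 of Lyz2 and C1q, with medians of 3623.5 and 5184.5 UMIs. In the myeloid gate these shares were 7.85% (6.95 to 8.83%) and 4.09% (3.41 to 4.87%), at medians of 14752 and 13071.5 UMIs. The intervals cover counting error only, and some B cells can themselves divide.

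The label of the cells was then checked against markers. Ptprc, which encodes CD45, was present at 374 ± 40.4 CPM (UMIs of the gene per 1000000 UMIs of the summed cells; mean ± SD, n = 4) in WT and 576 ± 135 CPM in CaMKK2 KO cycling cells. Of the 10 TAM markers, the 3 C1q genes helped to choose the cells and are no check of them. The other 7 summed to 12650 CPM over the 8 mice, with Apoe the most abundant and none at 0. Without Apoe, which differed between the genotypes, the remaining 6, among them Adgre1, Fcgr1, Mertk and Cd68, summed to 1821 CPM in cycling and 1993 CPM in non-cycling cells, and to 1452 to 2211 CPM in each mouse's cycling cells. The 7 microglia markers summed to 1420 CPM, most of it Cx3cr1 at 796 CPM. The 9 progenitor markers, which include Kit, Mpo and Elane, summed to 27.5 CPM, with Prtn3 the most abundant at 9.97 CPM. WT mouse 2 alone reached 120 CPM of them, and the other 7 mice had 5.44 to 34.0 CPM.

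Other cell types were low. The 9 dendritic cell markers summed to 21.1 CPM in cycling and 33.8 CPM in non-cycling cells, with Fscn1 the most abundant and none at 0. The 10 T and NK cell markers summed to 38.2 and 57.9 CPM, led by Gzma and with none at 0, and the 9 neutrophil markers to 46.9 and 591 CPM, led in cycling cells by Csf3r and with 1 member at 0 there. The 11 tumor and stroma markers summed to 41.2 and 31.6 CPM, led by Pecam1, with 3 at 0 in cycling cells. Among these, B cell and plasmacytoid dendritic cell markers were the exception, with 198 CPM in cycling and 134 CPM in non-cycling cells. Of these, 108 CPM in cycling cells came from Ighm, the IgM heavy chain. In non-cycling cells Siglech was the most abundant member, at 53.7 CPM. In cycling cells the sum for this list ranged from 74.5 to 206 CPM in WT and from 107 to 349 CPM in CaMKK2 KO mice. The part of this list in the differences described below was not tested.

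C1q UMIs were among those that chose the cells, so their values describe the members and support no label. Cells with 10 or more UMIs of the 3 C1q genes, which encode the recognition chains of complement C1, made up 96.6% of cycling and 59.2% of non-cycling cells with 1 hashtag. At 5000 UMIs per cell, any C1q UMI was present in 99.0% of WT and 93.1% of CaMKK2 KO cycling cells, against 85.2% and 67.3% of non-cycling cells. Tmem119, a marker of homeostatic microglia, was present in 53.2% and 39.8% of cycling and 39.8% and 23.0% of non-cycling cells. Free RNA was not measured for these genes or for those given below on thinned cells, so a UMI does not show expression by that cell. Tmem119 has also been described in TAMs, so the classes below are ranges of UMIs and not cell types.

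Ly6c2, which encodes the Ly6C antigen of classical monocytes, went the other way. After thinning it was present in 10.5 ± 4.50% (SD, n = 4) of WT cycling cells against 40.02 ± 17.8% of WT non-cycling cells, and in 38.7 ± 32.4% against 72.2 ± 13.4% in CaMKK2 KO mice. A UMI of Ly6c2, Chil3 or Plac8 was present in 23.9 ± 11.6% of WT and 75.4 ± 20.1% of CaMKK2 KO cycling cells, against 61 ± 19.9% and 92.2 ± 6.87% of non-cycling cells. Gated cells were also sorted into 5 classes in a fixed order. Microglia-marker cells had 3 or more UMIs of Tmem119, P2ry12, Gpr34 and Sall1, and held 177 WT and 67 CaMKK2 KO cycling cells. C1q cells without these markers held 42 and 30, Ly6c2/Chil3 cells 0 and 8, cells with dendritic cell markers 2 and 1, and no cycling cell fell in the remaining class.

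The Ly6c2/Chil3 class took only cells that had fallen in none of the microglia-marker, dendritic cell and C1q classes, so its share depends on the order of the classes. None of 591 such cells met the rule for cycling in WT mice, a count of 0 that allows a share of up to 0.508%, and 8 of 1190 met it in CaMKK2 KO mice, or 0.672% (95% exact binomial interval, 0.291 to 1.32%). Both shares lie below those of B cells given above and cannot be told from free RNA by this measure. In microglia-marker cells, 12.9 ± 1.99% of WT and 8.55 ± 3.00% of CaMKK2 KO cells cycled (SD over mice). In the C1q class the corresponding shares were 5.05 ± 2.24% and 3.39 ± 2.07%. Marker UMIs are found more often in deeper cells, and on thinned counts the shares that cycled in WT mice were 9.20 ± 1.21% in the microglia-marker and 10.2 ± 1.81% in the C1q class. The order of these classes thus changed with depth.

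Most cycling cells were rich in transcripts of S phase or mitosis, and some were not. The S phase list holds 34 genes and the mitosis list 40, with Top2a and Mki67 in neither. The median cycling cell had 36 UMIs of S phase and 106 UMIs of mitosis genes, and 98 of the 327 cells had more S phase than mitosis UMIs. In the plot of both sums by cell, these 98 cells form an arm below the diagonal. The cells at the lower left have few UMIs of either kind.

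Such cells were unevenly spread over the mice. They were counted, by a limit chosen after the data had been seen, as cycling cells whose S phase and mitosis UMIs per total UMIs were at or below the 95th percentile of non-cycling cells of the same mouse. WT mice 1 to 4 held 6, 4, 5 and 8 of them, or 10.4% of 221 cycling cells. CaMKK2 KO mice 1 to 4 held 3, 12, 3 and 3, or 19.8% of 106. In KO mouse 2 these were 12 of 19 cycling cells, with a median of 10.5 S phase and mitosis UMIs, and in KO mouse 4 they were 3 of 10. All 8 Ly6c2/Chil3 cells among the cycling cells were of this kind, beside 23 microglia-marker and 13 C1q cells. These 44 cells met the rule on Top2a and Mki67 but were not shown to be in either phase. Values without them are given below beside a part of the results whose call or size they changed.

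**Figure D1:**
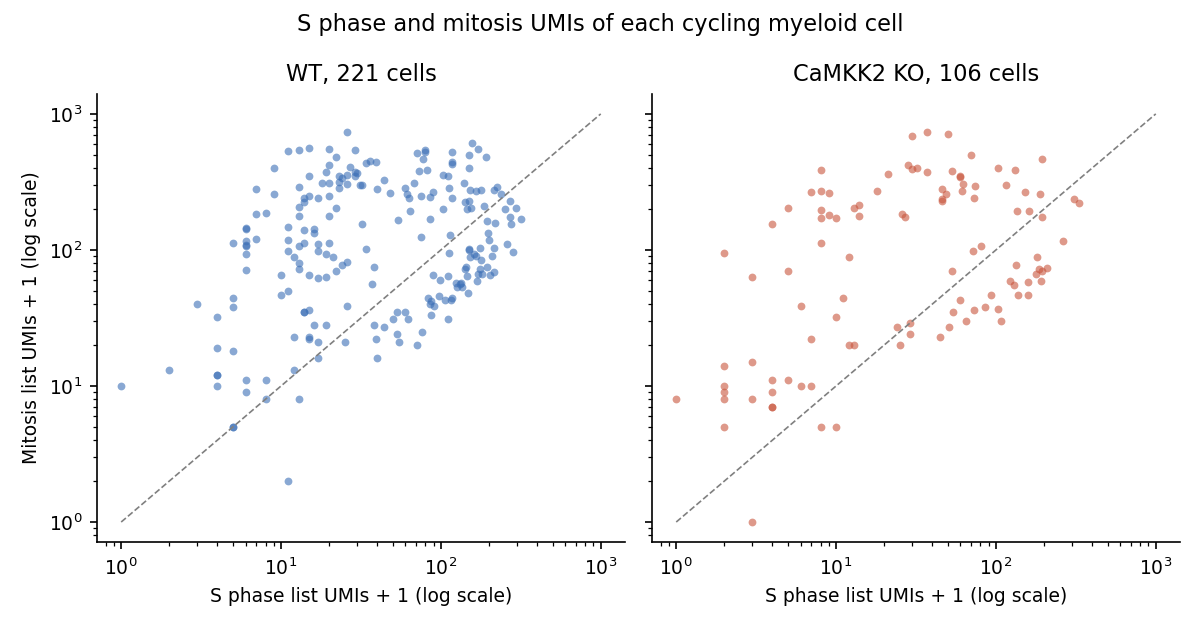
UMIs of the S phase list (x axis, plus 1, log scale) and of the mitosis list (y axis, plus 1, log scale) in each cycling myeloid cell with 1 hashtag, for 221 WT cells (left) and 106 CaMKK2 KO cells (right). Points below the dashed line have more S phase than mitosis UMIs, 67 in the left and 31 in the right panel.

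UMIs were then summed per mouse, and the genes of cycling and non-cycling cells of the same mice were compared. The rule itself set this contrast, so it is given as a description with no test. Values are log2 ratios of CPM + 10, and a gene counts as higher or lower when all 8 mice differed by 1.5-fold or more with the same sign. Of 6198 genes with 20 CPM or more in either group, 4.26% were higher and 0.71% lower in cycling cells, and the median gene had a ratio of 0.05. No reading is taken from these counts, since genes that move with Top2a and Mki67 were bound to be included.

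Genes of mitosis were set furthest apart. All 39 measured members of the mitosis list were higher in cycling cells, where 4.26% of all genes were, with a median log2 ratio of 2.72. Members low in non-cycling cells passed the limit of 20 CPM only through cycling cells. No reading is therefore taken from this count or from that of the S phase genes. Birc5, the survivin subunit of the chromosomal passenger complex, had 236 CPM in cycling against 2.57 CPM in non-cycling cells, and its log2 ratio ran from 3.75 in the lowest mouse over a median of 4.27 to 4.64 in the highest. Cenpe, a kinetochore motor, had ratios of 3.58 to 4.02 (median 3.80), and Ube2c, which loads ubiquitin for the anaphase-promoting complex, 3.16 to 4.58 (median 3.78). Of these 3, Cenpe varied least between mice, and Ube2c spread over more than 1 unit of log2. Prc1 and Nusap1, which the rule did not use, had median ratios of 3.39 and 3.01.

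Genes of DNA replication followed. Of 31 measured S phase genes, 26 were higher in cycling cells, where 4.26% of all genes were. The median log2 ratio was 1.73, and none was lower, where 0.71% of all genes were. Tk1, a thymidine salvage kinase, had ratios of 2.08 to 3.89 (median 3.18), and Mcm5, a subunit of the replicative helicase, 1.5 to 3.01 (median 2.28). Rrm2 stood at 83.5 CPM in cycling and 1.74 CPM in non-cycling cells. Pcna, the sliding clamp of DNA polymerase, was already present in non-cycling cells, at 79.6 CPM against 250.1 CPM in cycling cells, with ratios of 0.61 to 1.89 (median 1.61). Cdt1, Slbp, Chaf1b and Prim1 were among those that fell short of the criterion in at least 1 mouse.

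Cyclins and their brakes differed less uniformly. Of 13 measured cyclins, cyclin-dependent kinases and E2F genes, 5 were higher by 1.5-fold in all 8 mice, where 4.26% of all genes were. At any size 7 were higher in all 8 mice, where 20.1% of all genes were. The 5 were Ccna2, the cyclin of S and G2 (median 3.26), Ccne1 (1.75), Foxm1 (1.84), Cdk4 (1.07) and Ccnd1 (0.99). Ccnd2 and Cdk6 did not meet the criterion, with medians of 0.24 and 0.36. Among 9 measured brakes, Cdkn2c, an inhibitor of CDK4 and CDK6, was the only one higher by 1.5-fold in every mouse, at 47.6 CPM against 4.86 CPM. In cells of a narrower range of UMIs, described below, it missed that criterion, with a mean log2 ratio of 1.69 against 1.91 in all cells. Cdkn1a, the p21 inhibitor, had a median ratio of -0.62 and was lower in 7 of 8 mice. Btg1 and Btg2, antiproliferative genes of quiescent cells, were lower in 8 of 8 mice, with medians of -1.21 and -1.31, though not 1.5-fold in each.

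Of the genes highest in cycling cells, several were on none of these lists. Pclaf, a partner of PCNA, had 265 CPM in cycling and 3.71 CPM in non-cycling cells (mean log2 ratio 4.26, SD 0.50, n = 8 mice). Stmn1, which destabilizes microtubules, followed at 4.19, the histone genes Hist1h2ap, H1f5 and H2ac8 at 4.13, 3.66 and 3.63, and the kinetochore genes Spc24 and Knl1 at 3.07 and 3.05. H2ax, Kif15 and Cdkn3 were also among the 12 highest, the others being Top2a and Mki67 themselves. Hist1h2ap and similar replication-dependent histone genes are near-identical copies with few polyadenylated transcripts, so their counts are uncertain.

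Classical monocyte genes were lower in cycling cells. Of the 8 markers, 6 were lower by 1.5-fold in all 8 mice, where 0.71% of all genes were, and 7 were lower in all 8 at any size, where 10.6% were, with a list median of -2.0. Chil3, a chitinase-like protein of monocytes, had 86.7 CPM in cycling and 1677 CPM in non-cycling cells, and its ratio ran from -7.29 over a median of -5.21 to -2.0. Ly6c2 had ratios of -4.11 to -0.78 (median -2.55), and Ccr2, the receptor that guides monocytes out of marrow and blood, -2.14 to -0.80 (median -1.43). Plac8 and Vcan were also among the 6, and Ifitm6, Hopx, S100a6, Hp and Slpi were also among the 12 lowest genes. The list summed to 1753 CPM in cycling and 6227 CPM in non-cycling cells. Neutrophil S100a8 was lower as well, at 3.56 against 198 CPM, where 2 mice (WT mouse 2 and CaMKK2 KO mouse 4) carried most of the non-cycling neutrophil UMIs, with list sums of 1344 and 2679 CPM.

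No macrophage or microglia gene met the criterion. None of 10 TAM, 6 microglia or 13 lipid-associated genes was called in either direction, with medians of 0.24, 0.14 and -0.12. The 10 TAM genes and their median include the C1q genes, which helped to choose the cells, so these support no reading. Adgre1, which encodes F4/80, had ratios of 0.11 to 1.02 (median 0.45), Csf1r, the receptor of the macrophage growth factor CSF1, had -0.75 to 0.44 (median -0.28), and Apoe, the lipid carrier, had -0.82 to 1.21 (median -0.14). Klf4, a transcription factor of monocyte differentiation, was lower in 8 of 8 mice, with a median of -1.21. Of 16 measured genes of the myeloid growth factor axis, 10 were lower in all 8 mice at any size (10.6% of all genes were), but none by 1.5-fold in each, and the median was -0.63. Spn, which encodes the sialophorin CD43, was higher in all mice (1.02 to 1.46). It was the only higher one of 4 measured genes of the non-classical monocyte list, which had a median of -0.97. Of the others 2 were lower in all 8 mice at any size, 1 of them by 1.5-fold.

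Interferon response genes were lower in cycling cells. Of 12 members, 7 were lower by 1.5-fold in all 8 mice, where 0.71% of all genes were. At any size 11 were lower in all 8 mice, where 10.6% of all genes were, and the median was -1.19. Rsad2, the antiviral viperin, had a mean ratio of -2.33, and Ifit1 and Ifit3, which bind viral RNA, ran from -3.04 to -1.04 and from -2.34 to -0.89. Isg15 ran from -2.09 to -0.66. Cxcl9, a chemokine induced by interferon-gamma, differed from them, with 1074 CPM in cycling and a median ratio of 0.24. MHC class II genes had a median of -0.87 without a call among 7, of which 1 was lower in all 8 mice at any size, inflammation genes -0.57 without a call among 10, and hypoxia and glycolysis genes -0.28 without a call among 11. Of 11 biosynthesis genes 9 were higher in all 8 mice at any size, where 20.1% of all genes were, with a median of 0.65. Of these only Ran, the GTPase of nuclear transport and spindle assembly, met the criterion (ratios of 1.18 to 1.81).

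Depth and cell composition moved with this contrast, and both were examined. Cells of both groups were restricted to the 10th to 90th percentile of the UMIs of the cycling cells of the same mouse, which left 257 cycling and 2104 non-cycling cells. Their medians were still apart, at 27764 and 16688 UMIs, so that depth was narrowed and not matched. There 187 genes were higher and 17 lower, of which 181 and 11 were among those called in all cells. The 35 mitosis and 25 S phase genes that were higher there were all among those called in all cells. Of the classical monocyte genes 1, and of the interferon genes 2, were lower by 1.5-fold in every mouse. At any size 7 of 8 and 11 of 12 were lower in all 8 mice, as were 432 of the 6198 genes, and the medians were -1.48 and -1.01. Of the cyclin, kinase and E2F genes 3 were higher by 1.5-fold in each mouse, and of the 11 biosynthesis genes 5 were higher in all 8 mice at any size, as were 868 of the 6198 genes, with a median of 0.38. Within cells with 10 or more C1q UMIs, a comparison chosen after the data had been seen, 254 genes were higher and 17 lower. There the mitosis and S phase lists had 39 and 23 genes higher. By 1.5-fold in each mouse 3 monocyte and 3 interferon genes were lower, and at any size 6 and 10, with medians of -1.35 and -0.94. All 7 MHC class II genes were lower in all 8 mice at any size there, as were 545 of the 6198 genes (median -1.06), and 3 cyclin, kinase and E2F genes were higher by 1.5-fold.

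The 44 cells with few phase UMIs also bore on this contrast. Without them 319 genes were higher and 89 lower, against 264 and 44 with them, and 259 and 40 genes were shared. The mitosis and S phase lists again had 39 and 26 genes higher. Of the monocyte markers 7 were then lower by 1.5-fold in all 8 mice, with a median of -2.43, and of the interferon genes 5, with a median of -1.35. Ly6c2 had a mean ratio of -3.48 against -2.48 with these cells, and Chil3 one of -5.78 against -4.90. Calls were also made in lists that had none before, with 3 genes of the growth factor axis, 2 inflammation genes, 1 brake (Btg1) and 1 lipid-associated gene lower, and 3 biosynthesis genes in place of 1 higher.

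**Figure D2:**
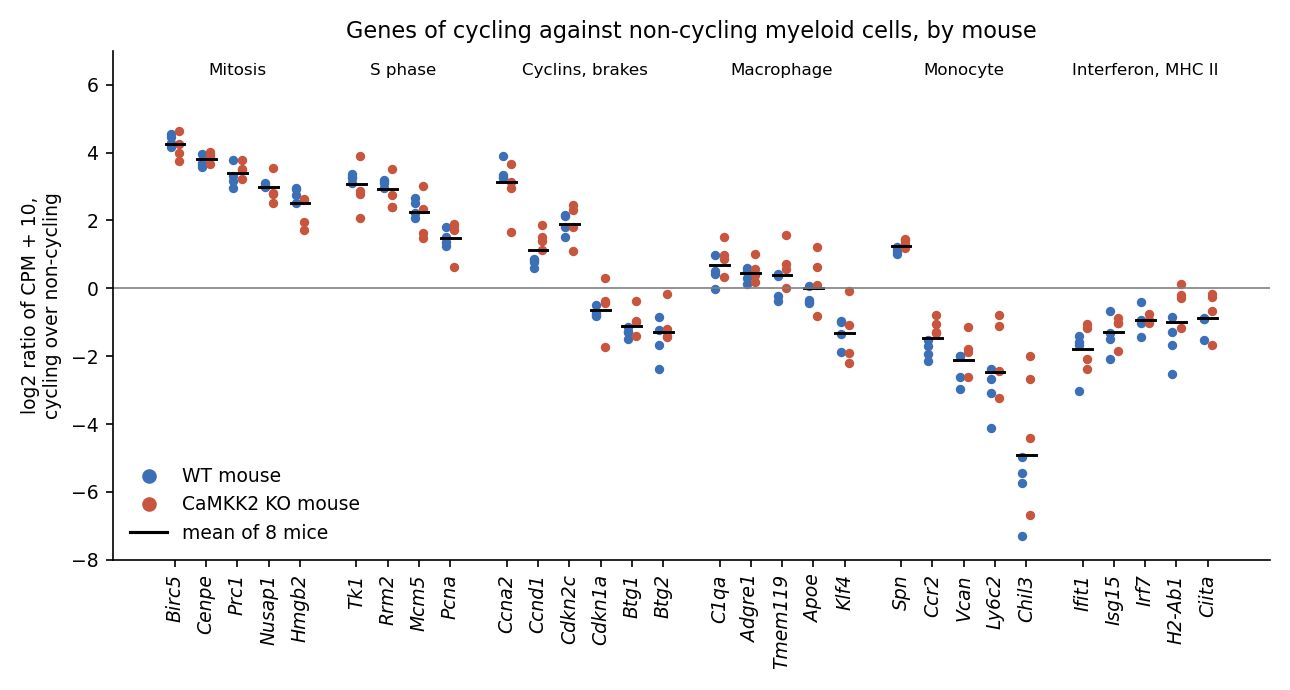
Log2 ratio of CPM + 10 in cycling over non-cycling myeloid cells (y axis) for genes of 6 groups (x axis), with 1 point per mouse (4 WT, 4 CaMKK2 KO) and a bar for the mean of 8 mice. Mitosis and S phase genes lie above 0 in every mouse, monocyte genes other than Spn lie below 0, and Apoe lies on both sides of it. The 3 C1q genes, which helped to choose the cells, summed to 15846 CPM in cycling and 10373 CPM in non-cycling cells.

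CaMKK2 KO was then compared with WT. Camkk2 itself was read first, as a check of the labels. In cycling cells it stood at 24.5, 25.7, 24.8 and 30.1 CPM in WT mice 1 to 4 and at 7.22, 8.71, 10.2 and 4.85 CPM in CaMKK2 KO mice 1 to 4. All KO mice were below all WT mice, with a ratio of the means of 0.295 (exact permutation test, two-sided, p = 0.0286, the smallest possible with 4 against 4). In non-cycling cells the means were 41.1 and 21.8 CPM, with a ratio of 0.530 (p = 0.0286 in the same exact test). The 3′ tags counted here may lie outside the deleted part of the gene, so remaining UMIs do not show intact transcript. Camkk2 was also lower in cycling than in non-cycling cells in 8 of 8 mice (mean log2 ratio -0.66).

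Fewer gated myeloid cells cycled in 3 of the 4 CaMKK2 KO mice. The shares were 8.80, 7.06, 6.79 and 7.82% in WT mice 1 to 4 and 3.56, 2.29, 8.13 and 1.59% in CaMKK2 KO mice 1 to 4. KO mouse 3 lay within the WT range and the other 3 below it, so that the genotypes overlapped. The means were 7.62 ± 0.902% in WT and 3.89 ± 2.94% in CaMKK2 KO mice (SD, n = 4), a difference of -3.73 percentage points that did not pass (exact permutation test, two-sided, p = 0.114). Without KO mouse 3 the difference was -5.14 points (p = 0.0286 in the exact test, the smallest possible with 4 against 3). Setting a mouse aside for its value in the outcome is no test of the genotype, and the value only shows how much rests on that mouse. When the 44 cells with few phase UMIs were not counted as cycling, the shares were 7.98, 6.48, 6.13 and 6.72% in WT and 3.12, 0.843, 7.67 and 1.11% in CaMKK2 KO mice. The difference was then -3.64 points (exact permutation p = 0.114).

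The size of the cells and the makeup of the gate were considered next. Median UMIs of gated cells per mouse were 14330 ± 924 in WT and 13112 ± 1325 in CaMKK2 KO mice. After thinning to 5000 UMIs, 2 or more Top2a and Mki67 UMIs were found in 6.65 ± 1.12% of WT and 3.80 ± 2.09% of CaMKK2 KO cells (p = 0.0857), and 4 or more in 3.29 ± 0.614% and 1.47 ± 1.87% (p = 0.143, both exact permutation tests). At 4 or more UMIs KO mouse 3, at 4.25%, lay above every WT mouse, of which the highest had 3.95%. Cells with 10 or more C1q UMIs were 75.7 ± 15.9% of the gate in WT and 54.4 ± 16.7% in CaMKK2 KO mice. C1q UMIs helped to set the gate, so these shares are a description with no test. Of these C1q cells, 9.43, 9.72, 11.8 and 9.52% cycled in WT mice 1 to 4 and 5.76, 4.07, 10.5 and 3.19% in CaMKK2 KO mice 1 to 4. KO mouse 3 again lay among the WT mice, and the difference was -4.25 points (exact permutation p = 0.114). Without KO mouse 3 it was -5.79 points, and after thinning -3.89 points at 2 or more and -2.74 points at 4 or more UMIs (p = 0.0286 for each in the exact permutation test, the smallest possible).

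Cells with a lymphoid gene were set beside them, from the same libraries. Among these 7.67 ± 2.05% cycled in WT and 9.35 ± 2.59% in CaMKK2 KO mice (exact permutation p = 0.314). The myeloid share minus the lymphoid share of the same mouse was -0.047 ± 2.60 points in WT and -5.46 ± 1.35 points in CaMKK2 KO mice, with no overlap between the genotypes (difference -5.41 points, exact permutation p = 0.0286, the smallest possible). Leaving out any 1 KO mouse gave differences of -5.86 to -5.02 points with an exact permutation p of 0.0571, and without KO mouse 3 the lymphoid share itself differed by 0.718 points (p = 0.657). The comparisons with C1q and lymphoid cells were chosen after the data had been seen. Over these 6 tests of shares none passed after Benjamini-Hochberg adjustment, with the lowest adjusted p at 0.171. Of all 922 barcodes with 4 or more Top2a and Mki67 UMIs, 53.2% in WT and 27.5% in CaMKK2 KO libraries lay in the myeloid gate.

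**Figure D3:**
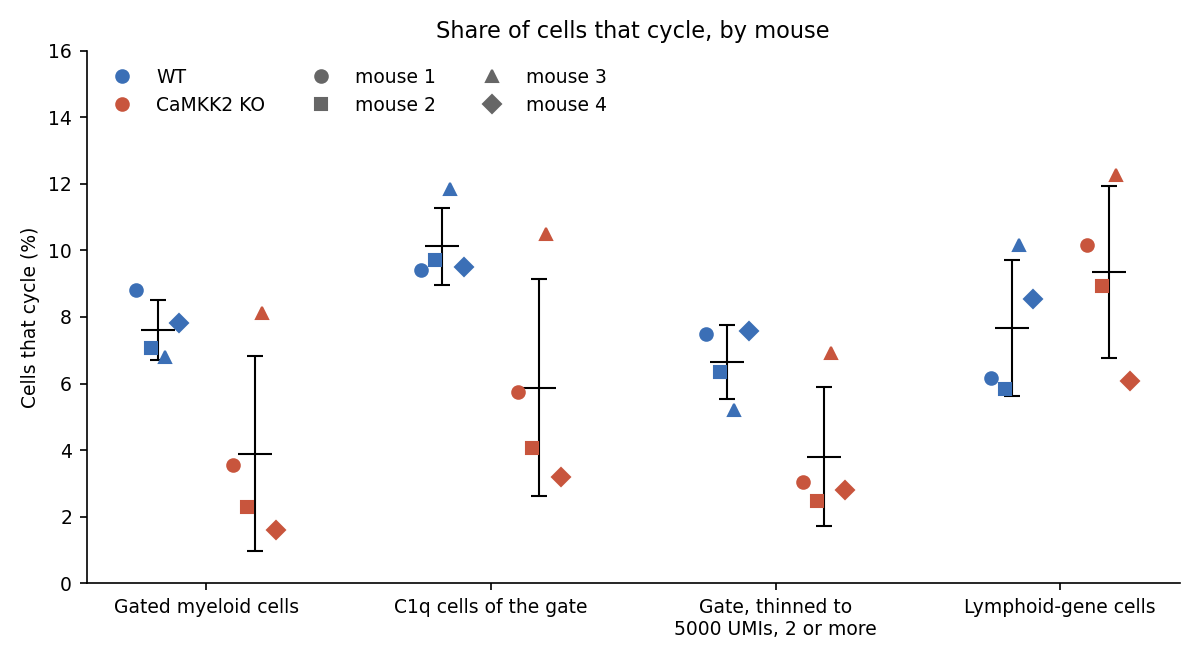
Percent of cells that cycle (y axis) in WT and CaMKK2 KO mice, 1 symbol per mouse, with bars for the mean and SD of 4 mice, in 4 sets of cells (x axis): the myeloid gate, its C1q cells, the gate thinned to 5000 UMIs with 2 or more Top2a and Mki67 UMIs, and cells with a lymphoid gene. CaMKK2 KO mouse 3 (triangle) lies among the WT mice in the first 3 sets, and the other KO mice lie below them.

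The phase of the cycling cells did not separate the genotypes. S phase genes took 26.7, 24.7, 35.004 and 32.4% of the S phase and mitosis UMIs in WT mice 1 to 4 and 32.2, 19.9, 28.0 and 29.4% in CaMKK2 KO mice 1 to 4. The genotypes overlapped, and the difference of -2.33 points lay within the SDs of 4.81 and 5.29 points (exact permutation p = 0.571). The S phase list summed to 2573 ± 430 in WT and 1996 ± 731 CPM in CaMKK2 KO cycling cells (exact permutation p = 0.257), and the mitosis list to 6114 ± 747 and 5164 ± 1241 CPM (p = 0.200). Adjusted over the 3 tests, the p-values were 0.571, 0.386 and 0.386.

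None of the classes of cycling cells passed a test between the genotypes. Microglia-marker cells made up 79.1 ± 11% of the cycling cells of WT and 58.5 ± 11.4% in CaMKK2 KO mice (exact permutation p = 0.0571, adjusted over the 5 classes 0.238). C1q cells made up 19.9 ± 9.96% and 29.3 ± 2.16%, and Ly6c2/Chil3 cells 0% and 11.2 ± 10.9% (p = 0.143 for each in the exact permutation test, adjusted 0.238). The 8 Ly6c2/Chil3 cells came from CaMKK2 KO mice 2, 3 and 4, with 4, 2 and 2 cells, all with few phase UMIs. Without the 44 cells with few phase UMIs no Ly6c2/Chil3 cell was left, and microglia-marker cells differed by -7.73 and C1q cells by 7.64 points. On thinned cells, a setting chosen after the data had been seen, microglia-marker cells made up 61.7 ± 10.4% and 49.2 ± 16%, C1q cells 37.3 ± 9.40% and 39.96 ± 8.36%, and Ly6c2/Chil3 cells 0% and 10.9 ± 14.5%. The difference in C1q cells was thus 2.69 points after and 9.40 points before thinning (adjusted p = 0.821 and 0.238 in the exact permutation test). At a threshold of 8 Top2a and Mki67 UMIs the difference in Ly6c2/Chil3 cells was 4.84 points, against 11.2 points at 4. Without KO mouse 3 the differences in microglia-marker, C1q and Ly6c2/Chil3 cells were -24.4, 10.4 and 13.7 points (adjusted p of 0.286, 0.333 and 0.333).

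Gene expression of cycling cells was compared between genotypes with the quasi-likelihood test of edgeR on UMIs summed per mouse, for 5670 genes with at least 200 UMIs. At an adjusted p below 0.05, 23 genes rose (0.406% of those tested) and 16 fell (0.282%) in CaMKK2 KO cells. The mice of the 2 genotypes did not overlap for any of the 39, against 7.48% of all tested genes without overlap. The median log2 fold change of all genes was -0.08. In non-cycling cells 0.758% of the same genes rose and 1.08% fell. Of the 39 genes 28 were also called there, which is 71.8% of these calls and 26.9% of the 104 calls in non-cycling cells, all 28 in the same direction. Both comparisons used the same mice and channels. Leaving out 1 mouse changed the 39 calls to 21 without WT mouse 2, 24 without WT mouse 4, 25 without KO mouse 1 and 63 without KO mouse 3. Without the 44 cells with few phase UMIs 44 genes were called, of which 36 were among the 39, and Ciita, H2-Ab1 and Ifi27l2a were not.

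Genes of MHC class II, which present antigen to CD4 T cells, were higher in cycling cells of CaMKK2 KO mice. Of 7 measured genes 4 rose, where 0.406% of all tested genes did, and the others did not pass. The list median was 2.89 on the log2 scale. H2-Ab1, a chain of the class II molecule I-A, stood at 134, 922, 1616 and 1215 CPM in WT mice 1 to 4 and at 8700, 9015, 4354 and 9898 CPM in CaMKK2 KO mice 1 to 4. The lowest KO mouse, mouse 3, lay above the highest WT mouse, and the log2 fold change was 3.04 ± 0.57 (SE; adjusted p = 0.0348). Leaving out WT mouse 2 or 4 or KO mouse 1, 2 or 4 raised that adjusted p to between 0.0752 and 0.133. The call was also lost at thresholds of 2 and 8 Top2a and Mki67 UMIs and among genes with at least 1000 UMIs. Ciita, the transactivator that switches on class II genes, stood at 0.521, 9.03, 26.2 and 22.4 in WT and 175, 218, 51.7 and 150.4 CPM in CaMKK2 KO mice, with KO mouse 3 again lowest and no overlap (log2 fold change 3.35 ± 0.65, adjusted p = 0.0417). Without WT mouse 2, 3 or 4 or KO mouse 1, 2 or 4 its adjusted p was 0.0503 to 0.159, and its call was also lost at the threshold of 8 UMIs. Without the 44 cells with few phase UMIs neither passed, at log2 fold changes of 2.79 (adjusted p = 0.0541) for H2-Ab1 and 2.88 (adjusted p = 0.0788) for Ciita, and the list median was 2.64 with 2 of 7 genes called.

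H2-DMb1 and H2-DMa form the chaperone that loads peptide onto class II. H2-DMb1 stood at 119, 164, 262 and 173 in WT and at 786, 801, 493 and 956 CPM in CaMKK2 KO mice (log2 fold change 2.07 ± 0.26, adjusted p = 0.0025). H2-DMa rose by 1.39 ± 0.20 (adjusted p = 0.00685). The other 3 genes, H2-Aa, H2-Eb1 and the invariant chain Cd74, had log2 fold changes of 2.89, 3.10 and 2.57 and adjusted p-values of 0.0530, 0.0530 and 0.0548. Their mice did not overlap either, and all 7 genes were called in non-cycling cells, where the list median was 1.91. Dendritic cell markers summed to 16 ± 8.6 in WT and 26.3 ± 10.7 CPM in CaMKK2 KO cycling cells. Markers of B cells and plasmacytoid dendritic cells summed to 156 ± 57.4 and 239 ± 107 CPM, and classical monocyte markers to 815 ± 333 and 2691 ± 2038 CPM. The 6 measured genes of the classical monocyte list had a median log2 fold change of 2.53 in cycling cells. Without the cells with few phase UMIs that median was 0.97. The part of these dendritic cell, B cell, plasmacytoid dendritic cell and monocyte markers in the rise of class II genes was not tested.

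Among the named genes, Ifi44, Ifi44l and Ifi202b, members of interferon-inducible families, rose furthest. Ifi44 stood at 9.37, 17.4, 20.1 and 10.5 in WT and at 221, 300.5, 161 and 437 CPM in CaMKK2 KO mice (log2 fold change 4.24 ± 0.35, adjusted p = 7.6e-05). Ifi202b had no UMI in any WT mouse and 248, 255, 167 and 335 CPM in CaMKK2 KO mice, at least 447-fold higher when set against 3 UMIs over the WT group. Ifi44l likewise had none in WT and 120, 135, 62.6 and 189 CPM in CaMKK2 KO mice, at least 204-fold higher by the same bound. Ifi213, of the family of Ifi202b, went the other way, with 243 UMIs in WT and 3 in CaMKK2 KO cycling cells (adjusted p = 0.0244, or 0.0503 to 0.0902 without WT mouse 2, 3 or 4 or KO mouse 1, 2 or 3). Its fitted value without the 44 cells with few phase UMIs was -6.21, against -5.07 with them, and such a value depends on the fit when so few UMIs are left. The Ifi200 genes on chromosome 1 are near-identical in places, so reads may be shared among them.

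The interferon response list, which does not hold these genes, gave no call. None of its 12 members passed in cycling cells, although all 12 had log2 fold changes above 0 (median 0.87), as did 38.1% of all tested genes. When the 44 cells with few phase UMIs were left out, 9 of the 12 were above 0 (median 0.48), and so were 2326 of 5670 genes. Isg15 stood at 59.9, 181, 212 and 172 in WT and at 214, 520.4, 147 and 767 CPM in CaMKK2 KO mice, where KO mouse 3 lay within the WT range (log2 fold change 1.34, adjusted p = 0.353). Cxcl9 also overlapped, with a log2 fold change of 1.79 and an adjusted p of 0.416. Without the same cells the values were 0.79 for Isg15 and 1.00 for Cxcl9 (adjusted p = 0.684 and 0.746).

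Among genes of monocytes, Ccr2 passed. It stood at 45.8, 100.1, 129.5 and 70.6 in WT and at 221, 235, 235 and 315 CPM in CaMKK2 KO mice, without overlap (log2 fold change 1.52 ± 0.28, adjusted p = 0.0272). Its adjusted p was 0.0594 to 0.121 without WT mouse 2 or 4 or KO mouse 1, 2 or 4. The call of Ccr2 was also lost at a threshold of 8 Top2a and Mki67 UMIs. Ly6c2, at 5.73, 86.2, 159.7 and 34.95 in WT and 129, 1004, 206 and 2368 CPM in CaMKK2 KO mice, overlapped between genotypes and did not pass (log2 fold change 3.66, adjusted p = 0.175). Without the 44 cells with few phase UMIs, the value for Ly6c2 was 2.03 (adjusted p = 0.562). It then stood at 51.1 CPM in KO mouse 2 and 839.8 CPM in KO mouse 4 and Ccr2 at 188.8 and 284 CPM, and Ccr2 still passed (log2 fold change 1.53, adjusted p = 0.0155). Ccl5, a chemokine for T cells, had a log2 fold change of 4.53 and an adjusted p of 0.0924, or 2.71 and 0.338 without these cells. Gatm, which makes the creatine precursor guanidinoacetate, rose with little spread, from 439, 549.6, 679 and 487 CPM in WT to 1420, 1657, 1476 and 1315 CPM in CaMKK2 KO mice (log2 fold change 1.45 ± 0.15, adjusted p = 0.000645).

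Further genes that rose were Gpr141 (2.38 ± 0.35), an orphan receptor, AW112010 (2.01 ± 0.38), an RNA induced in activated macrophages, Hebp1 (1.92), a heme-binding protein, and Pop4 (1.73 ± 0.23), a subunit of RNase P, all values being log2 fold changes. The call of AW112010 was lost without WT mouse 1, 2 or 4 or KO mouse 2 or 4 (adjusted p of 0.0591 to 0.131), and without the 44 cells with few phase UMIs its value was 1.198 (adjusted p = 0.0414). Hebp1 stood at 109, 54.9, 48.3 and 50.3 in WT and 264, 213, 282 and 233 CPM in CaMKK2 KO mice. WT mouse 1 was high in its group and still below every KO mouse. Together with the genes above other than H2-DMa, these were the 12 highest by the rule for named genes. Others that rose included Wls, a carrier of Wnt ligands (1.38), Napsa (1.42), Lst1 (1.26) and the Fc receptor Fcgr4 (0.94).

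Apoe was the most abundant of the genes that fell. Cycling cells held 25172, 16498, 18355 and 19604 CPM of it in WT mice 1 to 4 and 2230, 1111, 2205 and 1456 CPM in CaMKK2 KO mice 1 to 4. Every KO mouse lay far below every WT mouse, and the log2 fold change was -3.50 ± 0.24 (adjusted p = 1.6e-05), beside -3.75 in non-cycling cells. After thinning, an Apoe UMI was found in 99.5% of WT and 46.9% of CaMKK2 KO cycling cells, with the share from free RNA not measured. Of 10 TAM markers Apoe was the only one that passed. For Trem2, the lipid-sensing receptor of macrophages, the log2 fold change was -0.59 (adjusted p = 0.259).

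Cd63, a tetraspanin of lysosomes and exosomes, fell from 888, 655, 545 and 656 CPM in WT to 178, 148, 264 and 228 CPM in CaMKK2 KO mice (log2 fold change -1.74 ± 0.21, adjusted p = 0.00182). It was the second of 12 measured lipid-associated genes to pass, beside Apoe, with a list median of -0.51. Spp1, the osteopontin gene of the same list, had a log2 fold change of -2.65 and an adjusted p of 0.0957, with no overlap between the mice. Fcrls, an Fc receptor-like gene typical of microglia, stood at 368, 354, 254 and 381 in WT and 8.67, 17.4, 15.0 and 0 CPM in CaMKK2 KO mice (log2 fold change -4.78 ± 0.31, adjusted p = 1.6e-05). None of the 6 measured microglia markers passed. Tmem119 had a log2 fold change of -0.05 and Cx3cr1 one of -0.21, and 5 of the 6 lay below 0. Olfml3 had one of -1.56 (adjusted p = 0.0965), with no overlap between the mice. Without the cells with few phase UMIs the mice overlapped for Olfml3, with 187 CPM in KO mouse 4 and 160 CPM in WT mouse 1 (edgeR adjusted p = 0.185).

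Itga6, a laminin-binding integrin chain, fell from 197, 129, 105 and 155 CPM in WT to 31.8, 30.5, 38.8 and 4.85 CPM in CaMKK2 KO mice (log2 fold change -2.25 ± 0.31, adjusted p = 0.00438). Spint1, an inhibitor of serine proteases, had 107, 121, 124 and 89.5 CPM in WT and no UMI in any CaMKK2 KO mouse, at least 104-fold lower when set against 3 UMIs over the KO group. Eps8, an actin regulator, Camk2n1, an inhibitor of CaMKII, AA467197, H2ac20, Eif3j1 and Blnk, an adaptor of B cell and macrophage signaling, also fell, with log2 fold changes between -1.57 (Blnk) and -2.79 (Eps8). Of these, the calls of Blnk, Eps8, AA467197 and Camk2n1 were lost when 1 mouse was left out, at adjusted p-values of up to 0.125, 0.0898, 0.0739 and 0.0541. Camk2n1 was low throughout, at 25.9 to 40.3 in WT and 0 to 10.9 CPM in CaMKK2 KO mice.

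Positions were read from GENCODE M21 on GRCm38. Spint1 (chr2:119237362-119249527), Eif3j1 (chr2:122028546-122056598), Gatm (chr2:122594467-122611303) and AA467197 (chr2:122636986-122641191) lie on chromosome 2, as do Itga6 (chr2:71745616-71858416) and Chp1. In all, chromosome 2 held 15.4% of the 39 called genes and 7.46% of the genes tested, chromosome 3 held 17.9% and 5.03%, and chromosome 17 held 10.3% and 5.17%. Chromosome 7 held 12.8% and 7.18% and chromosome 19 held 7.69% and 3.95%, while chromosome 11 held 0% and 8.75%. Each is given as a description. Of the first 4 genes Gatm rose, while Spint1, Eif3j1 and AA467197 fell, the latter pair by 2.19 and 2.75 on the log2 scale. Ifi44 and Ifi44l adjoin each other on chromosome 3, at chr3:151730922-151749960 and chr3:151758737-151762892, and Ifi202b and Ifi213 both lie on chromosome 1. Camkk2 itself lies at chr5:122731170-122779409. The study's methods state that the mutant lines came from or were crossed back to C57BL/6, and that C57BL/6J mice were bought from a vendor while the CaMKK2 KO line came from another laboratory. A difference between the mouse lines other than the loss of Camkk2 therefore cannot be told apart from the genotype, for these genes and for all others.

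**Figure D4:**
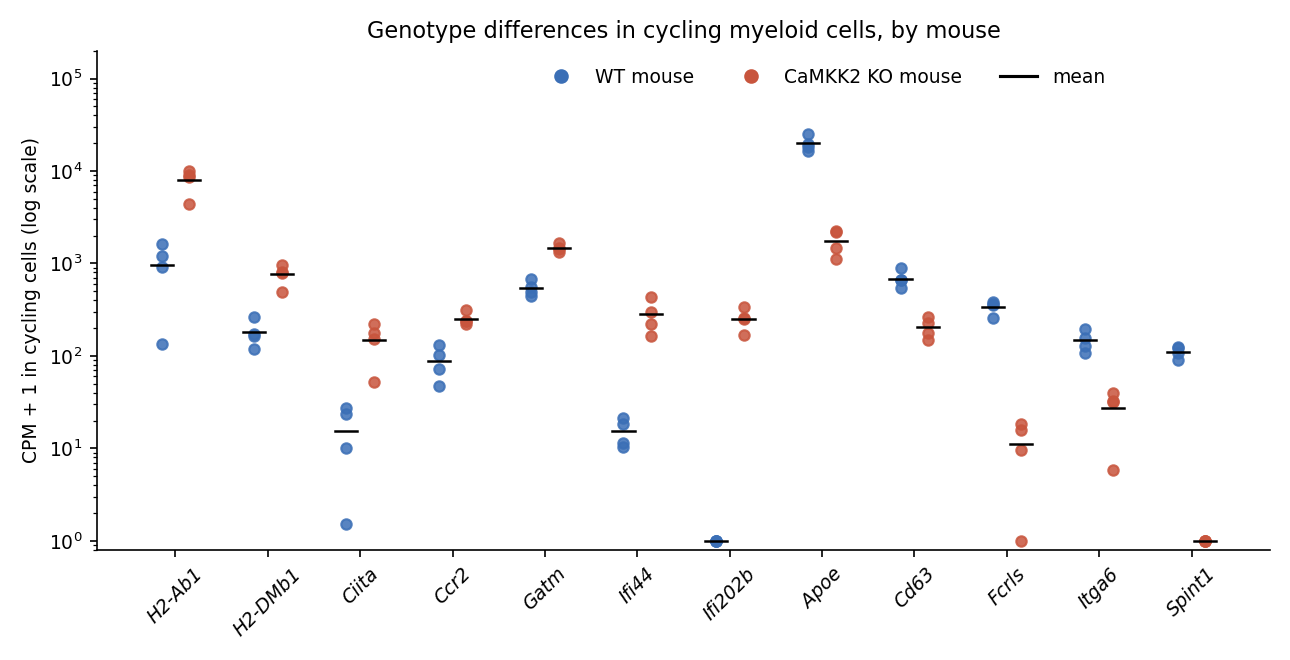
CPM + 1 (y axis, log scale) of 12 genes (x axis) in cycling myeloid cells, with 1 point per mouse (4 WT, 4 CaMKK2 KO) and bars for the means. WT and CaMKK2 KO mice do not overlap in any of the 12, and Ifi202b in WT and Spint1 in CaMKK2 KO mice sit at 0 UMIs.

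The cell cycle lists were then compared between genotypes within cycling cells. None of 31 S phase, 39 mitosis and 13 cyclin, kinase and E2F genes passed, with medians of -0.30, -0.19 and -0.18 on the log2 scale against -0.08 for all genes. Of the S phase genes 30 had values below 0, as did 61.9% of all tested genes. Leaving out the 44 cells with few phase UMIs, the medians of the 3 lists were -0.18, -0.02 and -0.09, against -0.05 for all genes. Of the marker genes that the rule did not use, Nusap1 had a log2 fold change of 0.05, Prc1 one of 0.13 and Rrm2 one of -0.21. Without those cells the values were 0.22, 0.28 and -0.06. Among 9 brakes (median 0.14, or 0.07 without those cells) and 15 genes of the growth factor axis (0.16, or 0.04) none passed. The same held for 11 hypoxia and glycolysis genes (0.56, or 0.36), 8 inflammation genes (0.51, or 0.06) and 11 biosynthesis genes (-0.26, or -0.16). In non-cycling cells, 1 mitosis gene, Bub1b, and 1 microglia marker, Olfml3, fell, and Ccl5 of the inflammation list rose.

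Of the 39 genes called in cycling cells, 11 were not called in non-cycling cells: Blnk, Camk2n1, Ccr2, Cd63, Fcgr4, Gpr141, Gsto1, Ifi27l2a, Lst1, Napsa and Wls. All 39 had the same sign in both. To ask whether the genotype acted differently in cycling and non-cycling cells, the interaction was tested over the 16 sums with the mouse as block. It called 3 genes with a higher KO effect in cycling cells (0.0529% of 5670) and none with a lower one (0%), and none of the 11 was among them. At an unadjusted p below 0.05 there were 251 genes.

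Pttg1, which encodes securin, the inhibitor of chromosome separation, gave the clearest interaction. In cycling cells it stood at 58.3, 56.3, 57.7 and 50.3 in WT and 83.8, 67.5, 114 and 112 CPM in CaMKK2 KO mice. In non-cycling cells the values were 43.1, 63.5, 63.9 and 54.7 in WT and 11.8, 10.9, 7.91 and 28.3 CPM in CaMKK2 KO mice. WT mice thus had nearly the same level in both states, whereas CaMKK2 KO mice were below WT in non-cycling and above WT in cycling cells, without overlap in either. The log2 fold changes were 0.76 in cycling (adjusted p = 0.109) and -1.96 in non-cycling cells (adjusted p = 0.0294), and the interaction was 2.90 (adjusted p = 0.00305). The interaction call was lost at a threshold of 2 Top2a and Mki67 UMIs and with limma on the mean CPM of cells. In cycling cells without the 44 that had few phase UMIs the value was 1.01 and passed (adjusted p = 0.00754).

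Ncapg2, a subunit of condensin II, had lower values in CaMKK2 KO than in WT mice in both states. It stood at 55.7, 66.0, 71.1 and 69.9 in WT and 33.2, 19.6, 44.9 and 19.4 CPM in CaMKK2 KO cycling cells, and at 22.3 to 27.3 in WT and 2.37 to 4.98 CPM in CaMKK2 KO non-cycling cells. The interaction of 1.62 (adjusted p = 0.0382) reflects the smaller difference in cycling cells, with log2 fold changes of -0.99 (adjusted p = 0.109) and -2.74 (adjusted p = 0.00037). Its adjusted p was 0.0645 to 0.389 without WT mouse 2, 3 or 4 or KO mouse 1, 3 or 4. The ratios of cycling over non-cycling cells overlapped between WT and CaMKK2 KO mice for Ncapg2, and not for Pttg1 and Plac8. Plac8, a small protein of monocytes, stood at 13.5, 73.0, 232 and 30.8 in WT and 637, 1322, 283 and 2193 CPM in CaMKK2 KO cycling cells. In non-cycling cells the genotypes overlapped, at 92.4 to 1989 in WT and 1153 to 4169 CPM in CaMKK2 KO mice, and the interaction was 2.27 (adjusted p = 0.0481). It did not pass without WT mouse 2 or 4 or any 1 KO mouse (adjusted p of 0.0717 to 0.325). Ly6c2/Chil3 cells, 8 of which were among the CaMKK2 KO and none among the WT cycling cells, moved with Plac8. Without the 44 cells with few phase UMIs, which include all 8, Plac8 stood at 153.4 CPM in KO mouse 2 and 1051 CPM in KO mouse 4, and the interaction was 1.37 (adjusted p = 1.0). The values of Pttg1 and Ncapg2 in the same fit were 3.17 (adjusted p = 0.000595) and 1.73 (adjusted p = 0.00756). Bub1b, a mitosis list gene, also passed in that fit, with an interaction of 2.24 (adjusted p = 0.0259). With all cycling cells its interaction was 2.004 and did not pass (adjusted p = 0.150).

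**Figure D5:**
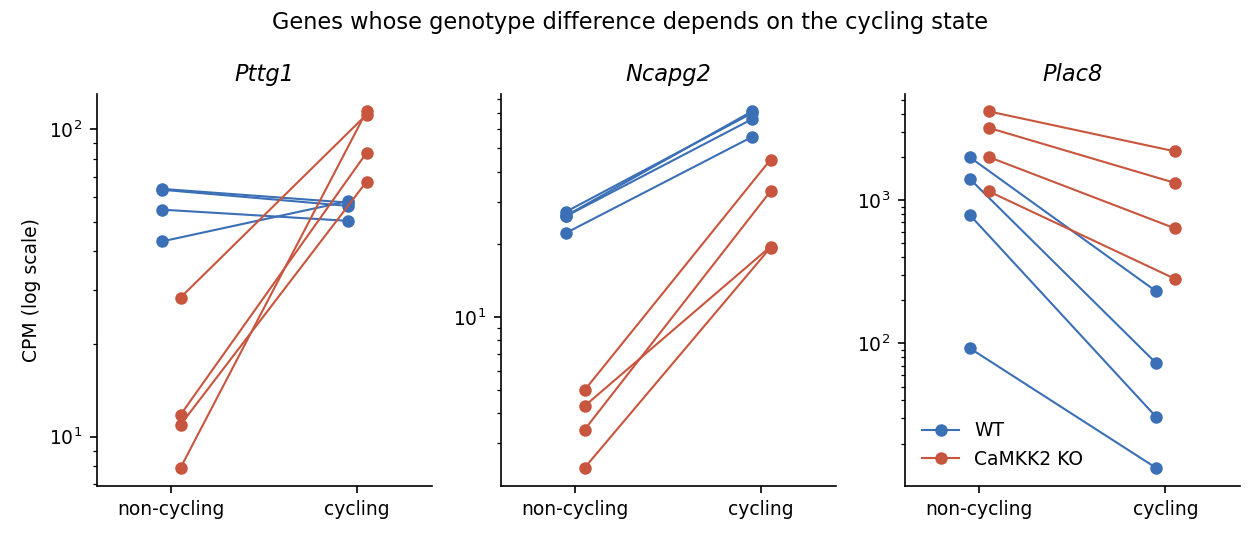
CPM (y axis, log scale) of Pttg1, Ncapg2 and Plac8 in non-cycling and cycling myeloid cells (x axis), with a line for each of 4 WT and 4 CaMKK2 KO mice. Pttg1 lines are flat in WT and climb in CaMKK2 KO mice, Ncapg2 climbs in all 8 mice, and Plac8 drops in all 8 mice.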

How the data were processed

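The authors deposited UMI counts per gene and barcode for both libraries, without normalization. The submitters' processing notes name bcl2fastq 2.20, Cell Ranger 4.0.0, STAR 2.7.5c, Seurat and mm10. Mice were assigned with HTODemux (Seurat 5.3.0, quantile 0.99), and doublets and negatives were left out. Scrublet (scanpy 1.11.5) called too few doublets to be used, so the 781 barcodes with the highest scores were removed only as an alternative. The members, gene lists and classes were chosen with earlier results of these data known.

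UMIs were summed per mouse and tested with edgeR 4.0.16 (R 4.3.3, library size the total UMIs, at least 200 UMIs, Benjamini-Hochberg). Shares were compared with two-sided exact permutation tests over mice (Python 3.11.15, scipy 1.17.1). Genes were named when on a list, among the 5 marker genes or Camkk2, or among the 12 highest or 12 lowest called genes without overlap between mice. In cycling against non-cycling cells they were the 12 highest and 12 lowest called genes. Ncapg2 was called in the interaction, but its ratios of cycling over non-cycling cells overlapped between the genotypes. It and others called beyond the 12 were named after their values had been seen, and 3 called genes with Gm, Rik or Rps names were only counted. On simulated cycling sums of 5670 genes, 69.4% of genes changed by 1 and 100% of those changed by 2 on the log2 scale were recovered, with 3.47% of calls false. Alternatives were DESeq2 1.42.0, limma 3.58.1, TMM, other filters and thresholds, thinning, each mouse left out, and cycling cells with few phase UMIs left out. Cycling sums held 206093 to 1920574 UMIs per mouse.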

Additional observations from a re-analysis of the deposited data

Results flagged for a closer look

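Among 90 groups of 4 mice examined, 6 had a mouse far from the other 3 of its genotype by Dixon's ratio, where chance gives about 1 in 20. CaMKK2 KO mouse 3 had 4.25% of gated cells with 4 or more Top2a and Mki67 UMIs after thinning to 5000 UMIs, against 0.247 to 0.908% in the other 3 KO mice. WT mouse 3 had 11.8% of C1q cells cycling, against 9.43 to 9.72% in the other WT mice. In cycling cells, Hebp1 was at 109 CPM in WT mouse 1, Ccr2 at 315 CPM in CaMKK2 KO mouse 4, Ifi213 at 9.70 CPM in CaMKK2 KO mouse 4 and Eif3j1 at 36.1 CPM in CaMKK2 KO mouse 1, the highest of its group in each case.

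The genotype difference depended on the cycling state for 3 genes by the interaction test of edgeR. The difference of log2 fold changes (cycling minus non-cycling) was 2.90 for Pttg1, 2.27 for Plac8 and 1.62 for Ncapg2, with adjusted p-values of 0.00305, 0.0481 and 0.0382.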

How the results depend on the processing

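Of 197 alternatives of counts and shares, 153 kept the direction and side of the threshold or stayed within 1.5 times the count, and of 27 gene results 15 were called in every alternative and 0 reversed. The cause of the other changes was not tested, apart from the smaller or larger number of genes or mice tested. Genes called in cycling cells numbered 107 with DESeq2, 18 with at least 1000 UMIs (1385 genes), 206 without a filter (15149 genes) and 21 to 63 with 1 mouse left out. At a threshold of 8 Top2a and Mki67 UMIs H2-Ab1, Ciita, Ccr2, Ifi213, AW112010, Blnk, Camk2n1 and Eps8 were not called in cycling cells. At a threshold of 2 UMIs the same held for H2-Ab1, AW112010, Blnk and Camk2n1. In non-cycling cells the 104 became 333 with DESeq2, 34 with at least 1000 UMIs, 158 with at least 50, 219 without a filter and 40 (without KO mouse 2) to 157 (without KO mouse 3). The 3 interaction genes became 5 with DESeq2, 67 without a filter, 1 to 4 with 1 mouse left out, and 0 with at least 1000 UMIs, with limma and at a threshold of 2 UMIs, beside 251 genes at an unadjusted p below 0.05 in edgeR. Cycling against non-cycling cells gave 204 genes in cells restricted to 1 range of UMIs, against 308, 408 without cells of few phase UMIs, and 311 to 391 with 1 mouse left out.

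The difference in the share that cycled ran from -5.14 to -2.96 points with 1 mouse left out, passing only without KO mouse 3 (-5.14). It ran from -5.79 to -3.35 in C1q cells and, after thinning, from -3.89 to -2.41 at 2 and from -2.74 to -1.41 at 4 UMIs, again passing only without KO mouse 3. The myeloid minus the lymphoid share ran from -6.52 to -4.51 and did not pass when any 1 KO mouse was left out. The S phase share ran from -4.003 to 0.170 points, above 0 only without KO mouse 2. The share of cells with dendritic cell markers, 0.0413 points, was -0.543 without the highest Scrublet scores, -1.03 on thinned cells and -1.0 to 0.388 with 1 mouse left out. Removing cells above 3 median absolute deviations left the gate as it was. Without cells of few phase UMIs, an alternative chosen after the data had been seen, the difference in the share of Ly6c2/Chil3 cells, 11.2 points, was 0. Mice of different genotypes were not paired, since a mouse number names no shared animal, while comparisons within mice kept the mouse as block. Depth limited cycling cells of CaMKK2 KO mouse 4 most, with 10 cells and 206093 UMIs.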
